A study of Caenorhabditis elegans with 3 samples.

Results

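The DNA replication licensing genes of Caenorhabditis elegans were the 6 subunits of the MCM helicase (mcm-2 to mcm-7), the loading factors cdc-6 and cdt-1, and the sliding clamp gene pcn-1. They were chosen by gene symbol in the annotation of the array, and each of the 9 genes had 1 probe, out of 20000 probes and 15159 genes tested. All 9 had a value on all 3 arrays, so no member was lost to the filter on missing values.

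Licensing is the step that readies DNA for copying before S phase. The origin recognition complex binds DNA, and CDC-6 and CDT-1 then help it to load the ring of MCM subunits, which later becomes the core of the replicative helicase. Geminin and a CUL-4 ubiquitin ligase hold CDT-1 in check so that no origin fires more than once in a cycle. PCN-1, the worm PCNA, does not load the helicase; it is the clamp that keeps polymerases on DNA at the fork. In a larva of the L4 stage, the last before the adult molt, the mitotic germ line, the dividing vulval cells and nuclei that copy DNA without dividing are among the places where replication takes place.

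RNA of early L4 hermaphrodites was compared with a common reference on 2-colour DNA microarrays. The 3 worm preparations formed 1 group with 1 array each, on which channel 1 held the wild-type mixed reference RNA and channel 2 the early L4 RNA. The labels give no genotype or strain for the L4 worms, no age in hours, no treatment, and no account of what was mixed into the reference. A value is the log2 ratio of the channels, centred on the median of its array, and a value below 0 was read as less RNA in early L4 than in the reference. That direction is likely rather than stated, since the sample descriptions set early L4 before the reference, and every ratio below would change sign if it were the other way. The labels do not say whether the worms were grown as separate cultures, so the p-values cover the spread between the 3 arrays, which may be technical.

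The preparation 1 array stood somewhat apart. The SD of the deposited log2 values was 0.93, 0.81 and 0.78 for preparations 1, 2 and 3. The array titles end in what look like dates, different for each array. Preparation, array and such a date therefore cannot be told apart. Over 15128 genes with all 3 values, the correlation with preparation 1 was 0.684 for preparation 2 and 0.643 for preparation 3, while preparations 2 and 3 correlated at 0.809; genes are not independent replicates, and all arrays share the reference, so these values only describe the arrays. In the direction read here, 14 of 18 sperm genes rose and 14 of 16 oocyte and eggshell genes fell. Among all genes, 12.6% were called higher and 10.1% lower (limma, adjusted p under 0.05). The signs of the sperm and oocyte genes were also used in choosing that direction, so they are no separate check of it. No list of pure L4 body markers was used, and the ratios cannot show that a gene is absent.

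The licensing genes lay close to the reference, mostly a little below it. The median of the 9 mean log2 ratios was -0.33, a 1.25-fold lower level in early L4, against -0.0064 for all genes. Of the 9 genes, 8 had a mean below 0, and all 9 lay within 2-fold of the reference, as did 85.2% of all genes. Only cdt-1 passed the test, in the lower direction (limma, two-sided, adjusted p under 0.05 over all genes), and 0 members were called higher. For comparison, 22.7% of all genes were called in either direction, 12.6% higher and 10.1% lower, so 1 call among 9 genes is near or under the background. The unadjusted p was under 0.05 for 1 member, again cdt-1. Without preparation 1 the median of the members was -0.20, and without preparation 2 or 3 no member was called.

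Values below 0 on all 3 arrays were found for 5 of the 9 genes (mcm-6, mcm-7, cdc-6, cdt-1 and pcn-1), and values above 0 on all arrays for 0 of 9. Among all genes, 27.6% were below 0 on every array and 26.2% above. The 3 members outside the helicase ring were all in the first class, while 4 of the 6 MCM genes had arrays on both sides of 0. Whole worms were measured against a mixed reference of unknown content. For a ratio below 0, fewer replicating cells, less RNA of these genes per cell and more of it in the reference cannot be told apart.

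**Figure D1:**
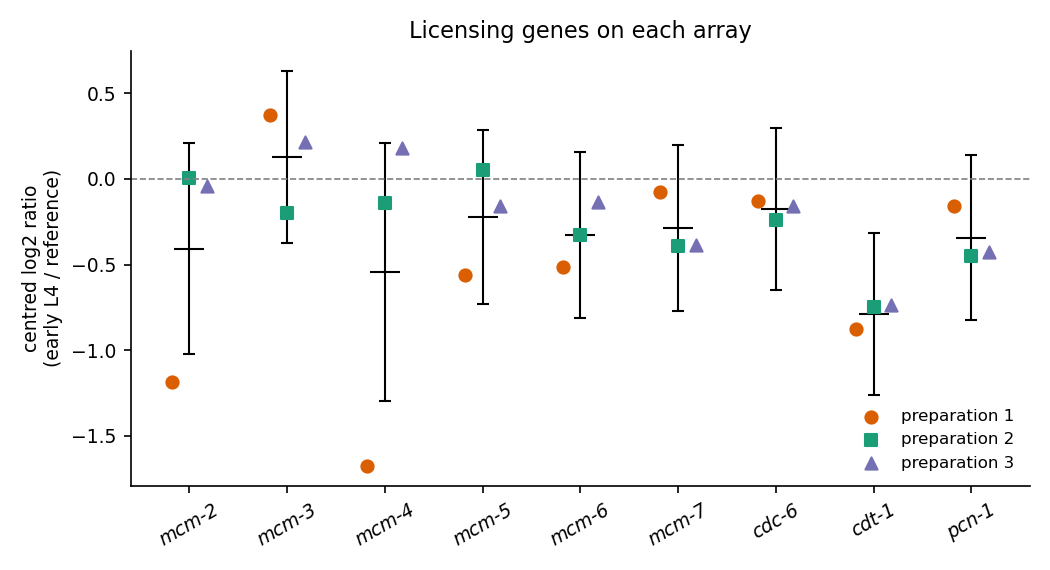
Centred log2 ratio of early L4 over reference (vertical axis) for the 9 licensing genes (horizontal axis) on the arrays of preparations 1, 2 and 3, with the mean (black dash) and its 95% confidence interval from limma (black bar). The interval leaves out 0 for cdt-1 alone, and mcm-2 and mcm-4 are far lower on preparation 1 than on the other arrays.

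MCM-2 to MCM-7 are 6 related ATPases that sit side by side in 1 ring, and none of their genes passed the test. mcm-2 (Y17G7B.5) had log2 ratios of -1.18, 0.0031 and -0.042 for preparations 1, 2 and 3. mcm-4 (Y39G10AR.14) had -1.68, -0.14 and 0.18. In both genes preparation 1 was low and the other arrays lay near 0, so their means, -0.41 ± 0.67 for mcm-2 and -0.54 ± 0.99 for mcm-4 (SD, n = 3), describe no single array well. The SD of mcm-4 was larger than that of 97.9% of all genes, and that of mcm-2 than 87.0%. The limma adjusted p was 0.336 for mcm-2 and 0.289 for mcm-4. Without preparation 1 the mean of mcm-2 was -0.019, and that of mcm-4 turned to 0.020 (limma adjusted p = 0.956 for each).

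mcm-6 and mcm-7 were the MCM genes with the most even values. mcm-6 (ZK632.1) had -0.52, -0.33 and -0.14, a mean of -0.33 ± 0.19 (SD, n = 3; limma adjusted p = 0.326). mcm-7 (F32D1.10) had -0.079, -0.39 and -0.39, a mean of -0.29 ± 0.18 (limma adjusted p = 0.391). All arrays were below 0 for both, with preparation 1 the lowest for mcm-6 and the highest for mcm-7. The 95% intervals, -0.81 to 0.16 for mcm-6 and -0.77 to 0.20 for mcm-7, allow a level up to 1.75-fold and 1.71-fold lower than the reference, or up to 1.12-fold and 1.15-fold higher.

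mcm-5 and mcm-3 lay nearest to the reference within the ring. mcm-5 (R10E4.4) had -0.56, 0.050 and -0.16, a mean of -0.22 ± 0.31 (SD, n = 3; limma adjusted p = 0.533). mcm-3 (C25D7.6) had 0.37, -0.20 and 0.22, and its mean of 0.13 ± 0.30 was the only one above 0 among the 9 genes (limma adjusted p = 0.727). Both genes had arrays on either side of 0. The interval of mcm-3, -0.37 to 0.63, allows from 1.30-fold lower to 1.55-fold higher.

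Products of these 6 genes work in 1 complex, so the spread of their log2 ratios within an array was described as well. It ran over 2.05 on preparation 1, from mcm-4 up to mcm-3, over 0.44 on preparation 2 and over 0.60 on preparation 3. Leaving out mcm-2 and mcm-4, the range on preparation 1 was 0.94 and the median of the other 4 subunits was -0.30, -0.26 and -0.15 on the 3 arrays. With all 6 subunits these medians were -0.54, -0.17 and -0.088. On the arrays of preparations 2 and 3 every MCM gene lay between -0.39 and 0.22.

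Of the loading factors, cdt-1 fell and cdc-6 did not pass. CDT-1 brings the MCM ring to the origin and is the target of the controls against a second round of copying. cdt-1 (Y54E10A.15) had -0.88, -0.75 and -0.74 for preparations 1, 2 and 3. The 3 values lay within 0.14 of each other and all below 0, and the mean was -0.79 ± 0.078 (SD, n = 3), a 1.73-fold lower level in early L4 (limma adjusted p = 0.0244). The 95% interval, -1.26 to -0.31, spans a level between 2.40-fold and 1.24-fold lower than the reference. The mean of cdt-1 stood at the 9.33 percentile of all genes. The mean changed little when an array was left out, but the call did: adjusted p was 0.0282 without preparation 1, 0.124 without preparation 2 and 0.100 without preparation 3.

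CDC-6 is an ATPase related to the origin recognition complex that acts with CDT-1 in loading the ring. cdc-6 (C43E11.10) had -0.13, -0.24 and -0.16. All 3 values were slightly below 0 and close together, with a mean of -0.18 ± 0.057 (SD, n = 3; limma adjusted p = 0.603) and an interval of -0.65 to 0.30. The SD was smaller than in 98.1% of all genes, yet limma draws the variance of each gene towards that of all genes, so an SD this small does not by itself give a call. cdt-1 was lower than cdc-6 by 0.75, 0.51 and 0.58 on the 3 arrays.

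pcn-1 (W03D2.4), the clamp gene, had -0.16, -0.45 and -0.43. All values were below 0, with preparation 1 nearest to it, the opposite of mcm-2 and mcm-4. The mean was -0.34 ± 0.16 (SD, n = 3), 1.27-fold lower (limma adjusted p = 0.297), with an interval of -0.82 to 0.14.

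From the lowest mean ratio to the highest, the order was cdt-1, mcm-4, mcm-2, pcn-1, mcm-6, mcm-7, mcm-5, cdc-6 and mcm-3. Of the 8 neighbouring pairs in this order, 7 changed places on at least 1 array. The exception was cdc-6 and mcm-3, with mcm-3 above cdc-6 on all 3 arrays by 0.31 ± 0.24 (SD, n = 3). cdt-1 lay below 6 of the other 8 genes on every array. mcm-2 and mcm-4 were the exceptions, since on preparation 1 they were lower than cdt-1 by 0.31 and 0.80. These differences of log2 ratios between genes were not tested, and they say nothing about which gene has more RNA.

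**Figure D2:**
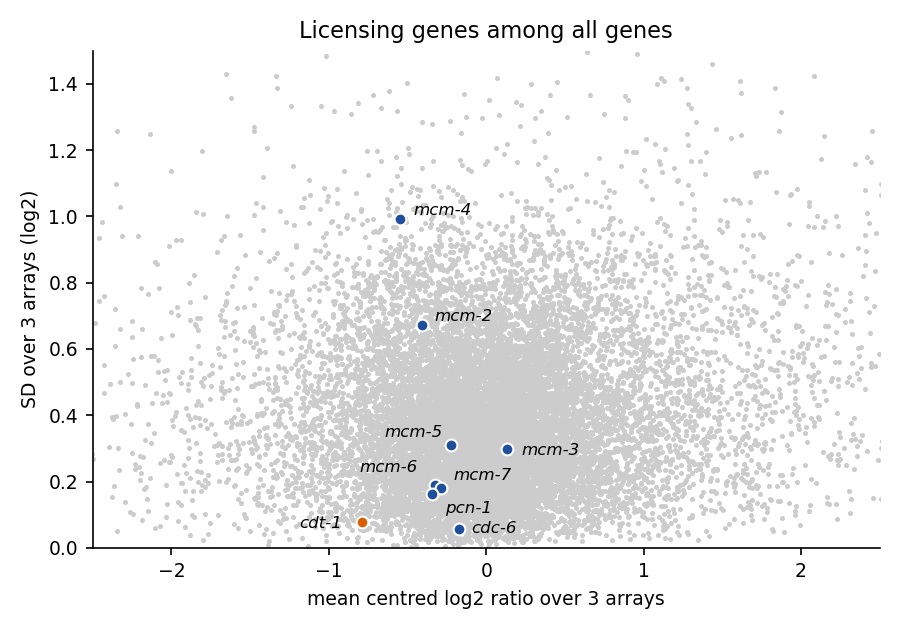
Mean centred log2 ratio (horizontal axis) and SD over the 3 arrays (vertical axis) of each gene with 3 values (grey; genes beyond the axis limits are not drawn), with the licensing genes in blue and the one that passed the test, cdt-1, in orange. cdt-1 and cdc-6 have the smallest SDs of the 9 genes, 0.078 and 0.057, and mcm-4 the largest, 0.99.

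The difference between preparation 1 and the other arrays was uneven over the members. On preparation 1, mcm-4 was lower than its mean over preparations 2 and 3 by 1.70 on the log2 scale, a gap that placed it at the 0.939 percentile of all genes, and mcm-2 was lower by 1.16, at the 6.13 percentile. mcm-5 and mcm-6 were lower on preparation 1 by 0.51 and 0.28, whereas mcm-3, mcm-7 and pcn-1 were higher there by 0.37, 0.31 and 0.28. For cdt-1 and cdc-6 the gaps were -0.13 and 0.068. Preparations 2 and 3 differed by a median of 0.084 over the 9 genes, against 0.29 over all genes, and preparation 1 differed from them by 0.32 and 0.31 over the 9 genes, against 0.477 and 0.488 over all genes.

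Gaps of more than 1 log2 unit below the other arrays were then counted over the members and the replication lists below, a threshold chosen after the values were seen. There were 8 such genes among the 46 with 3 values (mcm-2, mcm-4, orc-2, rbx-1, lig-1, dna-2, pole-1 and ndk-1), or 17.4%, and 0 genes with a gap of that size upwards. Among all genes 9.55% had such a gap downwards and 4.59% upwards. The count holds mcm-2 and mcm-4, whose values prompted it; among the 37 other genes there were 6, or 16.2%. Spot brightness was not used here, so whether the low values of mcm-2 and mcm-4 on 1 array go with dim spots was not tested.

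**Figure D3:**
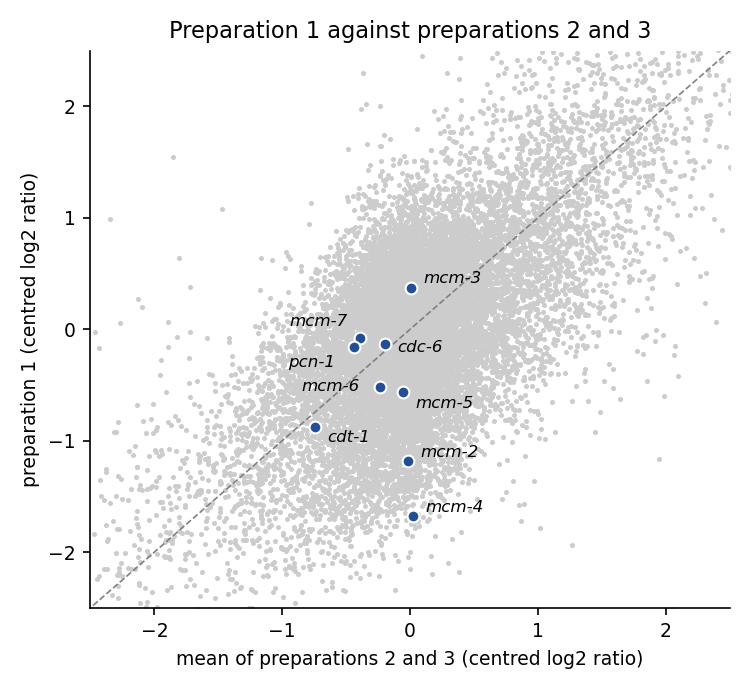
Centred log2 ratio on the preparation 1 array (vertical axis) against the mean of preparations 2 and 3 (horizontal axis) for each gene (grey; genes beyond the axis limits are not drawn) and the 9 licensing genes (blue); the dashed line marks equal values. mcm-2 and mcm-4 lie far below the line, 1.16 and 1.70 under it, while mcm-3, mcm-7 and pcn-1 lie above it.

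Partners of the licensing genes were read from lists of replication genes. Of 9 measured genes of the origin recognition complex and of licensing control, 3 fell and 0 rose, and the median log2 ratio of the list was -0.64. Of all genes, 10.1% were called lower and 12.6% higher. cdc-7, the kinase that activates the loaded MCM ring, had -1.23, -1.38 and -1.03 on the 3 arrays, a mean of -1.21 ± 0.18 (SD, n = 3; limma adjusted p = 0.00337). gmn-1, the gene of geminin, which binds and inhibits CDT-1, had -1.81, -0.50 and -1.17, a mean of -1.16 ± 0.65 (adjusted p = 0.0131). orc-1, a subunit of the origin recognition complex, had -0.68, -0.89 and -0.76, a mean of -0.78 ± 0.11 (adjusted p = 0.0263). These 3 genes were below 0 on every array, as was cdt-1. They were named because they were called lower on the same arrays, so this likeness adds no support. Below 0 on every array were 5 of the 9 genes of the list, beside 27.6% of all genes.

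The rest of that list did not pass. orc-5 had -0.64 ± 0.11 and rbx-1, of cullin ubiquitin ligases, -0.71 ± 0.75 (SD, n = 3), while orc-4 and orc-2 had -0.19 ± 0.30 and -0.16 ± 0.72. The ligase genes that act on CDT-1 in the worm, ddb-1 and cul-4, had means of -0.21 ± 0.29 and 0.020 ± 0.33, the latter the highest of the list. Without preparation 1 the median of the list was -0.34 and orc-5 was called lower too. Without preparation 2 or 3 the call of orc-1 was lost, and without preparation 3 rbx-1 was called lower.

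Genes that turn the loaded ring into a moving helicase gave 1 call each way among 8 measured, with a median of -0.36. The shares called over all genes were 10.1% lower and 12.6% higher. sld-2, a factor for origin firing, fell (-0.75 ± 0.22, SD, n = 3; limma adjusted p = 0.035). evl-18, whose product is the worm CDC-45, rose, with 0.90, 1.84 and 0.52 on the 3 arrays and a mean of 1.09 ± 0.68 (adjusted p = 0.0192). The GINS subunits psf-1, psf-2 and sld-5 had -0.62 ± 0.24, -0.49 ± 0.16 and -0.36 ± 0.19 and did not pass. dnsn-1 had -0.14 ± 0.36. GINS and CDC-45 bind the MCM ring together, and their genes lay on opposite sides of 0 on all arrays. The call of sld-2 was lost without preparation 2 or 3, and that of evl-18 without preparation 2.

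At the fork itself, 3 of 17 measured genes fell and 1 rose, and the list median was -0.15. Beside these counts, 10.1% of all genes were called lower and 12.6% higher. lig-1, the ligase that seals the lagging strand, had -1.11 ± 0.86 (SD, n = 3; limma adjusted p = 0.0294), with -2.09 on preparation 1. rfc-2, of the loader that places PCN-1 on DNA, had -0.91 ± 0.47 (adjusted p = 0.024), and pold-2, of polymerase delta, -0.76 ± 0.33 (adjusted p = 0.0393). The fork protection gene tipn-1 rose, with 0.77 ± 0.48 (adjusted p = 0.0477), and the polymerase epsilon gene pole-1 had 0.89 ± 0.74 (adjusted p = 0.0514). The other loader genes rfc-1, rfc-3 and rfc-4 had 0.31 ± 0.37, -0.52 ± 0.46 and -0.28 ± 0.33. Without preparation 1, lig-1 and pold-2 were not called and pole-1 was called higher. Without preparation 2 or 3, neither pold-2 nor tipn-1 was called.

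Of 4 genes for the supply of deoxynucleotides, 1 fell and 1 rose, beside 10.1% lower and 12.6% higher among all genes. rnr-2, the small subunit of ribonucleotide reductase, had -1.43 and -1.31 on preparations 1 and 2 and no value on preparation 3, a mean of -1.37 ± 0.082 (SD, n = 2; limma adjusted p = 0.00767). rnr-1, the large subunit, had -0.23 ± 0.26 (n = 3; adjusted p = 0.508). The kinase gene ndk-1 had 1.34 ± 0.91 (adjusted p = 0.0142), and dut-1, the dUTPase, 0.14 ± 0.17. rnr-2 could not be tested without preparation 1 or 2, and ndk-1 was not called without preparation 2.

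Taking these 4 lists as 1, 8 of 38 genes fell and 3 rose, that is 21.1% lower and 7.89% higher, beside 10.1% and 12.6% of all genes; the median was -0.24. The lists were not tested as sets. Without preparation 2 the counts were 4 lower and 0 higher, and without preparations 1 and 3 in turn 6 lower each, with 4 and 2 higher.

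Regulators of the G1/S step gave 3 genes lower and 1 higher among 16, with a median of -0.43. cdk-4, the kinase of cyclin D, had -1.28 ± 0.30 (SD, n = 3; limma adjusted p = 0.00315), cye-1, cyclin E, had -1.15 ± 0.49 (adjusted p = 0.00862), and the mitotic kinase gene cdk-1 had -1.10 ± 0.27 (adjusted p = 0.00631). The phosphatase gene cdc-25.4 rose (0.93 ± 0.37; adjusted p = 0.0174), and was not called without preparation 2. The CDK inhibitor cki-1 had 0.12 ± 0.35. The E2F and retinoblastoma genes efl-1, dpl-1 and lin-35, known as regulators of S-phase genes, had -0.38 ± 0.44, -0.21 ± 0.14 and -0.48 ± 0.12 and did not pass. Of 27 M-phase genes, 4 fell and 2 rose, with a median of -0.081. Beside this list and the G1/S list, 10.1% of all genes were called lower and 12.6% higher. Cyclin B3 (cyb-3, -1.34 ± 0.50), the spindle checkpoint gene san-1 (-1.29 ± 0.26), the kinetochore gene ndc-80 (-0.81 ± 0.54) and the centromeric histone gene hcp-3 (-0.80 ± 0.37) fell, and the kinesin genes klp-7 (1.12 ± 0.72) and klp-19 (0.70 ± 0.086) rose. Without preparation 2 the M-phase counts were 2 lower and 0 higher, and the median was -0.22. The call of hcp-3 was lost without any 1 preparation, that of ndc-80 without preparation 1 or 2, that of klp-19 without 2 or 3, and that of klp-7 without 2. With trend and robust settings of limma, ndc-80 and klp-19 were not called either (adjusted p = 0.0531 and 0.0538). Without preparation 1 the cell division gene fzy-1 was called lower. Without preparation 1, cdk-2, another kinase of the G1/S list, was called lower.

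**Figure D4:**
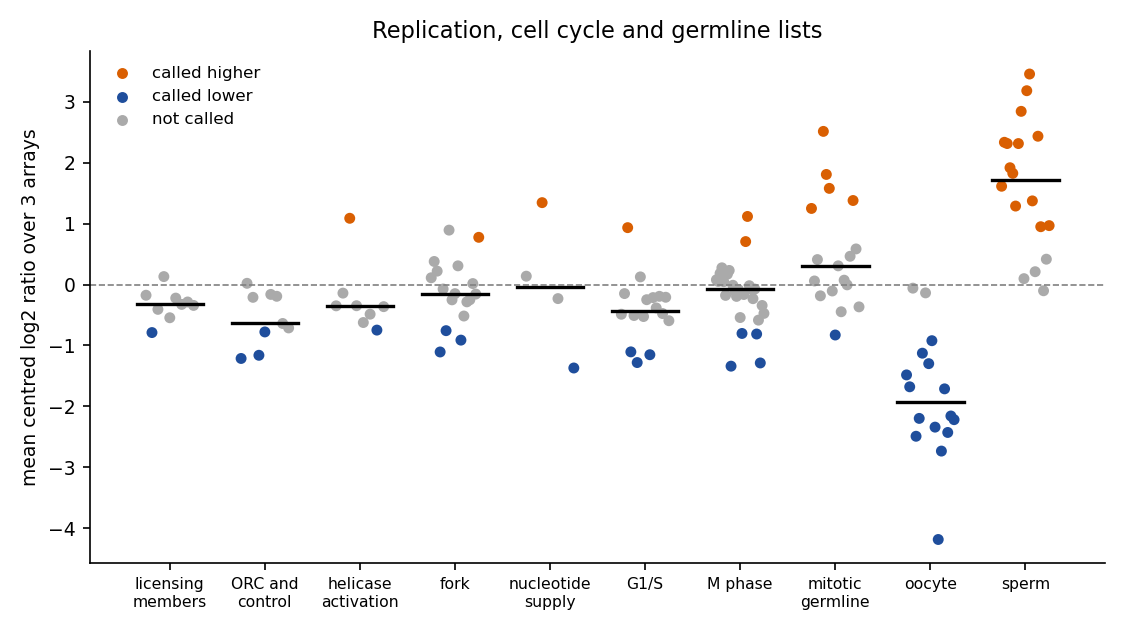
Mean centred log2 ratio over the arrays (vertical axis) of each measured gene of the licensing set and of the replication, cell cycle and germline lists (horizontal axis); the black line is the median of a list, and colours mark genes called higher (orange), called lower (blue) or not called (grey) at adjusted p under 0.05. The oocyte list (-1.93) and the sperm list (1.72) have the lowest and highest medians, and every other list drawn lies between them, the licensing set (-0.33) included. The list labelled mitotic germline also holds P granule genes and is not confined to mitotic germ cells.

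Germ cells hold much of the replicating DNA of the worm, and their marker genes moved both ways. Of 17 genes in a list of germline genes and regulators, not confined to mitotic germ cells, 5 rose and 1 fell. Among all genes, 12.6% were called higher and 10.1% lower. The median of the list was 0.31 over the means and 0.63, 0.12 and 0.32 on preparations 1, 2 and 3. The P granule helicase gene glh-1 had 2.51 ± 0.30 and glh-2 had 1.80 ± 0.54 (SD, n = 3). The other genes that rose were the P granule genes glh-4 (1.58 ± 0.20) and pgl-1 (1.38 ± 0.17) and fbf-2 (1.25 ± 0.28), an RNA-binding regulator that keeps germ cells in mitosis. The germline Notch receptor gene glp-1 had -0.11 ± 0.18, sygl-1, a target of that receptor, had -0.37 ± 0.018, and lst-1, another of its targets, fell (-0.83 ± 0.43; limma adjusted p = 0.0339). Without preparation 1 the median was 0.11, and without preparation 1 or 2 lst-1 was not called.

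Oocytes and early embryos carry stored RNA for replication, as background, and the labels do not say whether the reference held either. The 16 oocyte and eggshell genes had a median of -1.93, between -1.96 and -1.73 on the 3 arrays, and ranged from perm-2 (-4.18 ± 0.35) and perm-4 (-2.73 ± 0.26) to mbk-2 (-0.14 ± 0.56) and egg-1 (-0.060 ± 0.068; SD, n = 3). Of 11 early embryonic genes, 2 fell (pal-1 and sdz-27) and 1 rose (end-3), beside 10.1% lower and 12.6% higher among all genes. The median of the 11 genes was -0.074. Without preparation 1 these counts were 3 and 0 and the median was -0.29, and without preparation 2 end-3 was not called and the median was 0.026. end-3 was not called with trend and robust settings either (limma adjusted p = 0.0507). The sperm genes had a median of 1.72 and reached 3.45 ± 0.71 for spch-3. All of the licensing means, from -0.79 to 0.13, were nearer to 0 than the median of either gamete list. The part of these cell types in the ratios of the licensing genes was not tested.

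The genes of the replication and G1/S lists with the pattern most like the MCM genes were mus-101, dpl-1 and ctf-4, by the root mean square difference from the mean profile of mcm-2 to mcm-7 over the 3 arrays (-0.61, -0.17 and -0.054). The difference was 0.14 for mus-101, a scaffold for origin firing, 0.15 for dpl-1 and 0.17 for ctf-4, out of 53 genes ranked. On preparation 1 the mean profile includes the low values of mcm-2 (-1.18) and mcm-4 (-1.68). The median of the other 4 subunits there was -0.30, so the ranking describes likeness to the mean and not to each MCM gene. Over all genes, 237 were at least as close as mus-101, so this likeness, over only 3 arrays and near 0, sets none of them apart.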

How the data were processed

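The log2 values deposited by the authors are ratios of the 2 channels. Raised as powers of 2, at least 99.96% were whole thousandths (within 0.01), so the ratios had been kept to 3 decimals. The sources used here give no dyes, scanner, background correction, normalization or direction. Column medians were 0.054, -0.082 and -0.025 for preparations 1, 2 and 3. Of 20000 probes, 15655 had 1 gene symbol in the platform's old annotation, 198 several and 4147 none; names were updated through the gene table of WBcel235, 15569 by gene number and 86 by symbol. Arrays were centred on their medians, and spots of 1 gene averaged. Genes with at least 2 values (15159) were tested against 0 with limma 3.58.1 in R 4.3.3 (lmFit and eBayes, Benjamini-Hochberg, threshold 0.05). This leaves out the reference's own spread. The pipeline was tested on ratios simulated from the fitted variances, with no outlying array. That test says nothing about arrays like preparation 1. All members were named, and of each list the genes past the threshold and the 2 highest and lowest; marker lists are given more briefly. Members and lists were chosen with earlier results of these data known. Alternatives were uncentred ratios, quantile normalization, complete genes, trend and robust settings, single probes and leaving out each preparation. The number of arrays limits the precision.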

Additional observations from a re-analysis of the deposited data

How the results depend on the processing

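All 9 licensing genes kept their side of the threshold with uncentred ratios, quantile normalization, complete genes only, trend and robust settings and each probe on its own, and none changed direction there; the adjusted p of cdt-1 lay between 0.013 and 0.033 (limma). With 1 preparation left out, the mean of cdt-1 ran from -0.81 to -0.74. Its call was lost without preparation 2 (limma adjusted p = 0.124) or 3 (0.100) and kept without preparation 1 (0.0282). Each of these fits had 1 array fewer. The number of members called lower was 0 to 1. The mean of mcm-4 ran from -0.91 to 0.020 and was reversed without preparation 1, whose array alone was low. Over all genes, 1275 to 2259 were higher and 1148 to 1672 lower with 1 preparation left out, against 1917 and 1527; the other alternatives gave 1725 to 2118 higher and 1412 to 1936 lower. The median of the members ran from -0.34 to -0.20. In the replication lists, trend and robust settings ended the call of tipn-1, uncentred ratios, quantile normalization and single probes added pole-1, and quantile normalization also added orc-5. Each ratio already pairs early L4 RNA with the reference RNA on the same array. All arrays belong to 1 group, so no further pairing was possible. Without spot brightness, the limits set by signal over background are unknown.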
